A study of Macaca mulatta with 21 samples.

Results

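The genes described here are a set of transcription factors and cell proteins linked to the mesenchymal state: ZEB1, ZEB2, TWIST1, SNAI1, SNAI2, PRRX1, VIM and CDH2. They were chosen by gene symbol and not by a rule on their measured values, though earlier results of these data were known. Every probe set annotated with 1 of these symbols alone was taken. Of the 8 genes, 6 were represented, by 10 of the 52865 probe sets on the array. SNAI2 and CDH2 were not analysed here. All 6 represented genes passed the filter on low values, a log2 intensity of 5 or more on at least 3 arrays, as did 11142 of 14132 genes in all. PRRX1 reached log2 5 on 0 of the 18 pluripotent arrays and passed through the 3 fibroblast arrays alone, so that its difference from the fibroblasts follows from the filter.

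ZEB1, ZEB2, TWIST1 and SNAI1 are DNA-binding proteins that repress epithelial genes such as E-cadherin (CDH1), and they drive the epithelial-to-mesenchymal transition, in which cells lose their junctions and become migratory. PRRX1 is a homeobox factor of limb, craniofacial and dermal mesenchyme. VIM encodes vimentin, the main intermediate filament protein of mesenchymal cells. Skin fibroblasts are mesenchymal cells, primate pluripotent cells grow as epithelial colonies, and factor-induced reprogramming of fibroblasts passes through the reverse, mesenchymal-to-epithelial transition.

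Messenger RNA was measured in rhesus macaque cells on Affymetrix rhesus arrays, with 3 biological replicates (A, B and C) of each of 7 lines. The male line CRES-1 and the female line CRES-3 were derived from cloned blastocysts, obtained by somatic cell nuclear transfer (SCNT). Retroviral delivery of OCT4, SOX2, KLF4 and cMYC gave the induced pluripotent lines: RiPS1 (male) from fetal skin fibroblasts, and RiPS2 and RiPS3 (both female) from skin fibroblasts of adults aged 10 and 8 years. The male line ORMES23 was derived from a blastocyst obtained by fertilization in vitro (IVF). The fibroblasts were grown from a skin biopsy of an adult female aged 8 years. All 7 lines, the fibroblasts included, were cultured on mitotically inactivated mouse embryonic fibroblasts, and RNA came from hand-picked undifferentiated colonies or from trypsinized fibroblasts. Each line is 1 derivation, so that tests compare these lines and not the routes in general, and p-values measure only the spread between cultures of a line. The female lines differ from ORMES23 in sex as well as in origin, which cannot be told apart.

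The cell type labels were set against marker genes. The mean over 7 pluripotency markers lay between log2 10.1 and 10.5 on the 18 pluripotent arrays, against 3.92 to 4.31 on the 3 fibroblast arrays, where all 7 averaged under log2 5. In CRES-1, CRES-3, RiPS1 and ORMES23, 1 of the 7 averaged under log2 5 too, which in ORMES23 was CDH1. The mean over 8 skin fibroblast markers lay between 6.88 and 7.88 on the pluripotent arrays, against 10.2 to 10.4 on the fibroblast arrays. LUM and FAP averaged under log2 5 in every pluripotent line, and the other 6 fibroblast markers did not. Differences were fitted with limma over all genes, and a gene was called at a Benjamini-Hochberg adjusted p under 0.05 with a difference of at least 2-fold (1 on the log2 scale). Levels below are log2 intensities per array. They compare lines for 1 probe set and do not rank genes against each other, and values under log2 5 lie near background. In these bulk samples, fewer cells of a type and less RNA per cell cannot be told apart.

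**Figure D1:**
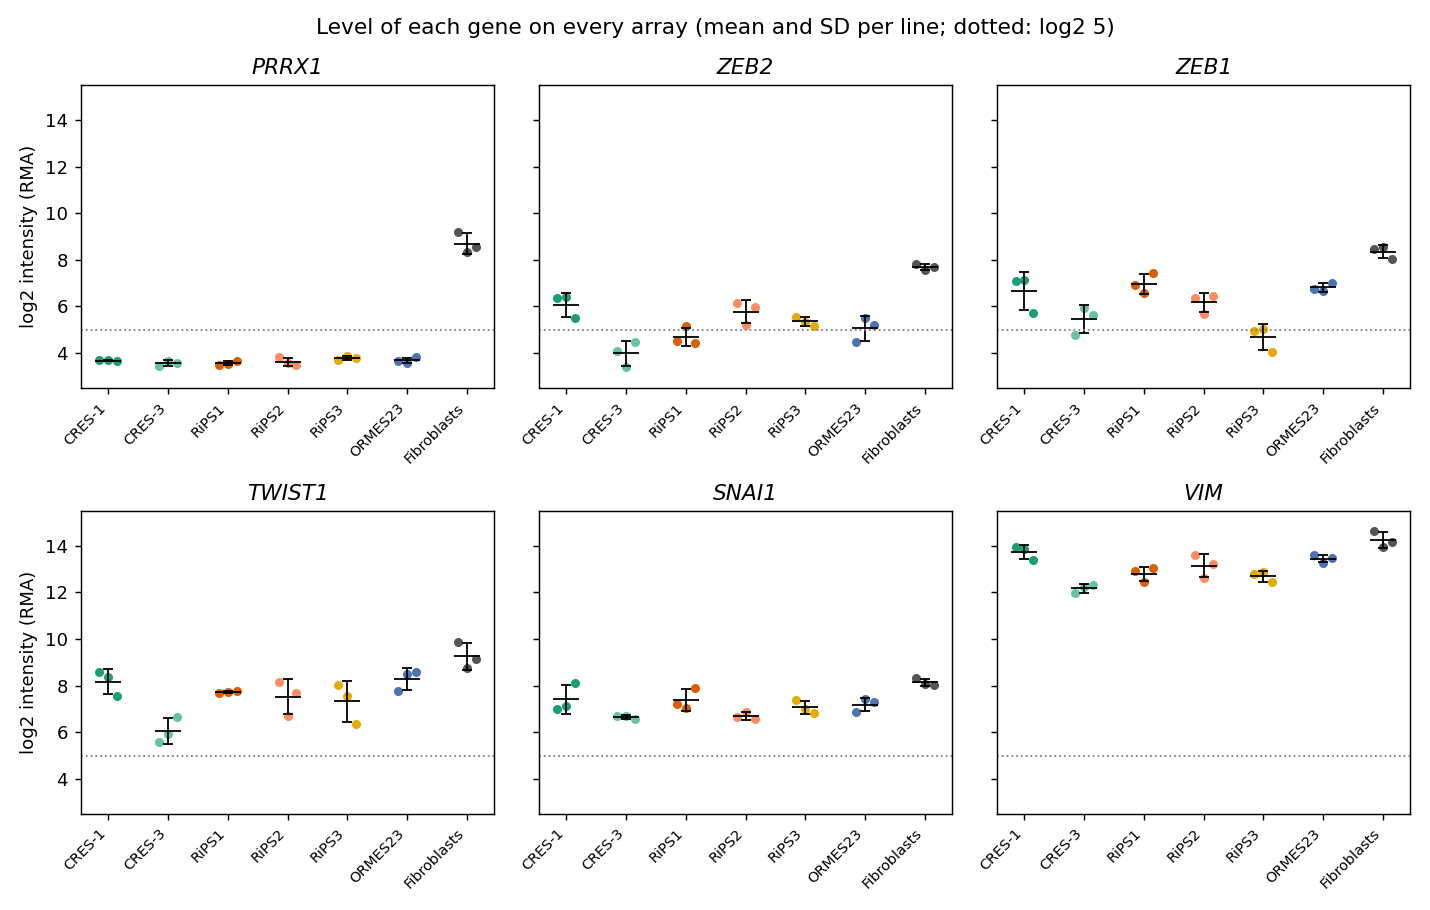
Log2 intensity (vertical axis) of PRRX1, ZEB2, ZEB1, TWIST1, SNAI1 and VIM on each of the 21 arrays, by line. Points are arrays, black bars are the mean ± SD of 3 arrays and the dotted line is log2 5. PRRX1 stays below log2 5 on all 18 pluripotent arrays, while VIM stays at 11.97 or more on every array.

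All 6 genes had their highest mean in the fibroblasts, and none was called higher in any pluripotent line. PRRX1, ZEB2 and ZEB1 fell in each of the 6 pluripotent lines, TWIST1 in 5, VIM in 4 and SNAI1 in 3. CRES-3, RiPS2 and RiPS3 had all 6 genes called lower than in the fibroblasts, RiPS1 had 5, CRES-1 had 4 and ORMES23 had 3. Each of these counts includes PRRX1, whose difference follows from the filter. Over all tested genes, the share called lower was 14.2% in CRES-3, 14.6% in RiPS2, 14.2% in RiPS3, 13.5% in RiPS1, 14.2% in CRES-1 and 14.1% in ORMES23. The share called lower in all 6 lines was 10.5% of the tested genes, against 3 of the 6 genes described here, or 2 of 5 without PRRX1. For 4 of the 6 genes, ZEB1, ZEB2, TWIST1 and PRRX1, all 18 pluripotent arrays lay under the lowest fibroblast array, as they did for 19.1% of the tested genes; without PRRX1 this held for 3 of 5. The 6 comparisons share the same 3 fibroblast arrays.

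PRRX1 showed the widest separation. The probe set that stood for it was the brighter one on average over all arrays, but the dimmer one in the fibroblasts. On it the 18 pluripotent arrays read between 3.45 and 3.87, against 9.19, 8.33 and 8.55 on the fibroblast arrays. The pluripotent values all lay under log2 5, so that the gene was near background in CRES-1, CRES-3, RiPS1, RiPS2, RiPS3 and ORMES23 alike. Counted from log2 5, PRRX1 fell at least 12.9-fold in each line. The fitted log2 differences lay between -5.13 (RiPS1) and -4.90 (RiPS3), each with an SE of 0.16. Since PRRX1 passed the filter through the fibroblast arrays alone, these differences are a description, and their p-values are not given as a test. The other PRRX1 probe set read 2.73 to 3.52 on the pluripotent arrays, against 11.33, 10.35 and 10.69 on the fibroblast arrays. It was lower in each of the 6 lines too, with fitted log2 differences between -7.91 (CRES-3) and -7.55 (RiPS2).

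ZEB2 was low in the pluripotent lines but not uniformly so. It read 6.36, 6.39 and 5.49 in CRES-1, 4.09, 3.42 and 4.48 in CRES-3, and 4.52, 5.15 and 4.44 in RiPS1. It read 6.15, 5.22 and 5.98 in RiPS2, 5.56, 5.34 and 5.18 in RiPS3, and 4.47, 5.50 and 5.22 in ORMES23, against 7.83, 7.56 and 7.71 in the fibroblasts. No pluripotent array reached the fibroblast values. All 3 CRES-3 arrays, 2 of the RiPS1 arrays and array A of ORMES23 lay under log2 5, while all arrays of CRES-1, RiPS2 and RiPS3 lay above it. The log2 difference from the fibroblasts was smallest in CRES-1, at -1.62 (SE 0.32, adjusted p = 0.000291). In CRES-3 the fitted difference was -3.70 (adjusted p = 1.61e-08), a fall of at least 6.49-fold counted from log2 5, and in RiPS1 the fall was at least 6.28-fold.

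ZEB1 followed another order of lines. It read 7.10, 7.16 and 5.73 in CRES-1, 4.80, 5.92 and 5.65 in CRES-3, and 6.91, 6.60 and 7.44 in RiPS1. It read 6.38, 5.69 and 6.44 in RiPS2, 4.94, 5.05 and 4.03 in RiPS3, and 6.76, 6.66 and 7.02 in ORMES23, against 8.45, 8.54 and 8.02 in the fibroblasts. RiPS3 was the lowest line, with 2 arrays under log2 5, and RiPS1 the highest pluripotent line. The log2 difference from the fibroblasts was -3.67 in RiPS3 (SE 0.37, adjusted p = 1.41e-07), a fall of at least 10.0-fold counted from log2 5. It was -1.36 in RiPS1 (adjusted p = 0.00416) and between -2.88 and -1.53 in the other 4 lines.

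TWIST1, a basic helix-loop-helix factor, read above log2 5 on all 21 arrays. It read 8.58, 8.37 and 7.57 in CRES-1, 5.60, 5.92 and 6.67 in CRES-3, and 7.68, 7.74 and 7.75 in RiPS1. It read 8.17, 6.71 and 7.69 in RiPS2, 8.04, 7.57 and 6.35 in RiPS3, and 7.75, 8.52 and 8.59 in ORMES23, against 9.87, 8.75 and 9.14 in the fibroblasts. CRES-3 stood lowest, and all 18 pluripotent arrays lay under the lowest fibroblast array. The log2 difference from the fibroblasts was -3.19 in CRES-3 (SE 0.44, adjusted p = 4.94e-06) and between -1.93 and -1.53 in the 3 induced lines. In ORMES23 it was -0.97 (95% interval -1.89 to -0.05, adjusted p = 0.0622) and was not called. The call in CRES-1, at -1.08 (adjusted p = 0.0418), was lost without array B or C of CRES-1 or array A or C of the fibroblasts, where the difference lay between -1.18 and -0.77 and the adjusted p between 0.0576 and 0.177. Without fibroblast array B, the ORMES23 difference was -1.22 and called (adjusted p = 0.0384).

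SNAI1, a zinc finger repressor whose protein is short-lived, was measured above log2 6 on all 21 arrays. It read 6.99, 7.11 and 8.11 in CRES-1, 6.71, 6.69 and 6.55 in CRES-3, and 7.23, 7.02 and 7.91 in RiPS1. It read 6.64, 6.88 and 6.58 in RiPS2, 7.36, 6.99 and 6.84 in RiPS3, and 6.87, 7.41 and 7.29 in ORMES23, against 8.31, 8.08 and 8.03 in the fibroblasts. Array C of CRES-1 overlapped the fibroblast range, and no other pluripotent array did. SNAI1 fell in CRES-3 (log2 difference -1.49, SE 0.26, adjusted p = 6.60e-05), RiPS2 (-1.44) and RiPS3 (-1.08). In CRES-1, RiPS1 and ORMES23 the log2 differences of -0.73, -0.75 and -0.95 had adjusted p-values of 0.0206, 0.0167 and 0.00382 but stayed under 2-fold. These sizes lie close to the limit. The RiPS3 difference was under 2-fold without RiPS3 array C (-0.96) or fibroblast array A (-0.99). SNAI1 passed 2-fold without array C in CRES-1 (-1.09) and RiPS1 (-1.01), and in ORMES23 without its array B (-1.06) or C or without fibroblast array C.

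VIM was bright in every line. On its brightest probe set it read 13.95, 13.85 and 13.39 in CRES-1, 11.97, 12.23 and 12.30 in CRES-3, and 12.90, 12.46 and 13.03 in RiPS1. It read 13.59, 12.63 and 13.21 in RiPS2, 12.77, 12.86 and 12.43 in RiPS3, and 13.60, 13.27 and 13.46 in ORMES23, against 14.62, 13.94 and 14.17 in the fibroblasts. CRES-3 was the lowest line, and array A of CRES-1 overlapped the fibroblast range. VIM fell 4.22-fold in CRES-3 (log2 difference -2.08, SE 0.23, adjusted p = 4.14e-07), 2.94-fold in RiPS3, 2.73-fold in RiPS1 and 2.15-fold in RiPS2. The RiPS2 difference was under 2-fold without RiPS2 array B (-0.85), without fibroblast array A (-0.91) or with the mean of all VIM probe sets (-0.89). The log2 difference was -0.80 in ORMES23 (adjusted p = 0.00622) and -0.51 in CRES-1 (adjusted p = 0.0672), neither of them called.

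**Figure D2:**
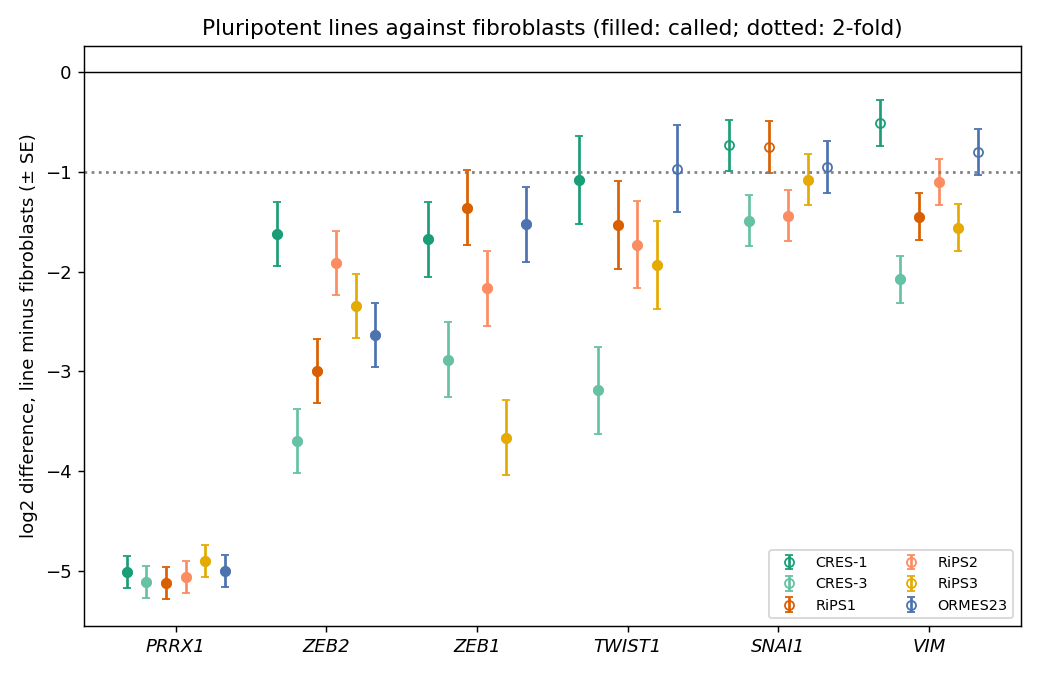
Log2 difference of each pluripotent line from the fibroblasts (vertical axis, ± SE) for the 6 genes. Filled circles passed an adjusted p under 0.05 with at least 2-fold, open circles did not, and the dotted line is 2-fold. PRRX1 lies near -5 in all lines, while the differences of ZEB1 range from -3.67 to -1.36 and those of VIM from -2.08 to -0.51.

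VIM and PRRX1 were each read by more than 1 probe set. For VIM, the second probe set read 11.08 to 13.01 on the pluripotent arrays, against 12.91 to 13.59 on the fibroblast arrays. It was called lower in CRES-3, RiPS1, RiPS2 and RiPS3, as was the brightest probe set. The third read 9.58 to 11.40, against 10.76 to 11.78, and was called lower in CRES-3 (log2 difference -1.36) and RiPS3 (-1.09) only, with differences of -0.98 in RiPS1, -0.75 in RiPS2, -0.33 in ORMES23 and 0.01 in CRES-1. By the array maker's naming, the brightest probe set can match several related transcripts and the third is open to cross-hybridization. The fourth VIM probe set stayed under log2 5 on all arrays except array A of ORMES23 (5.92) and array A of the fibroblasts (5.24), and did not pass the filter.

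**Figure D3:**
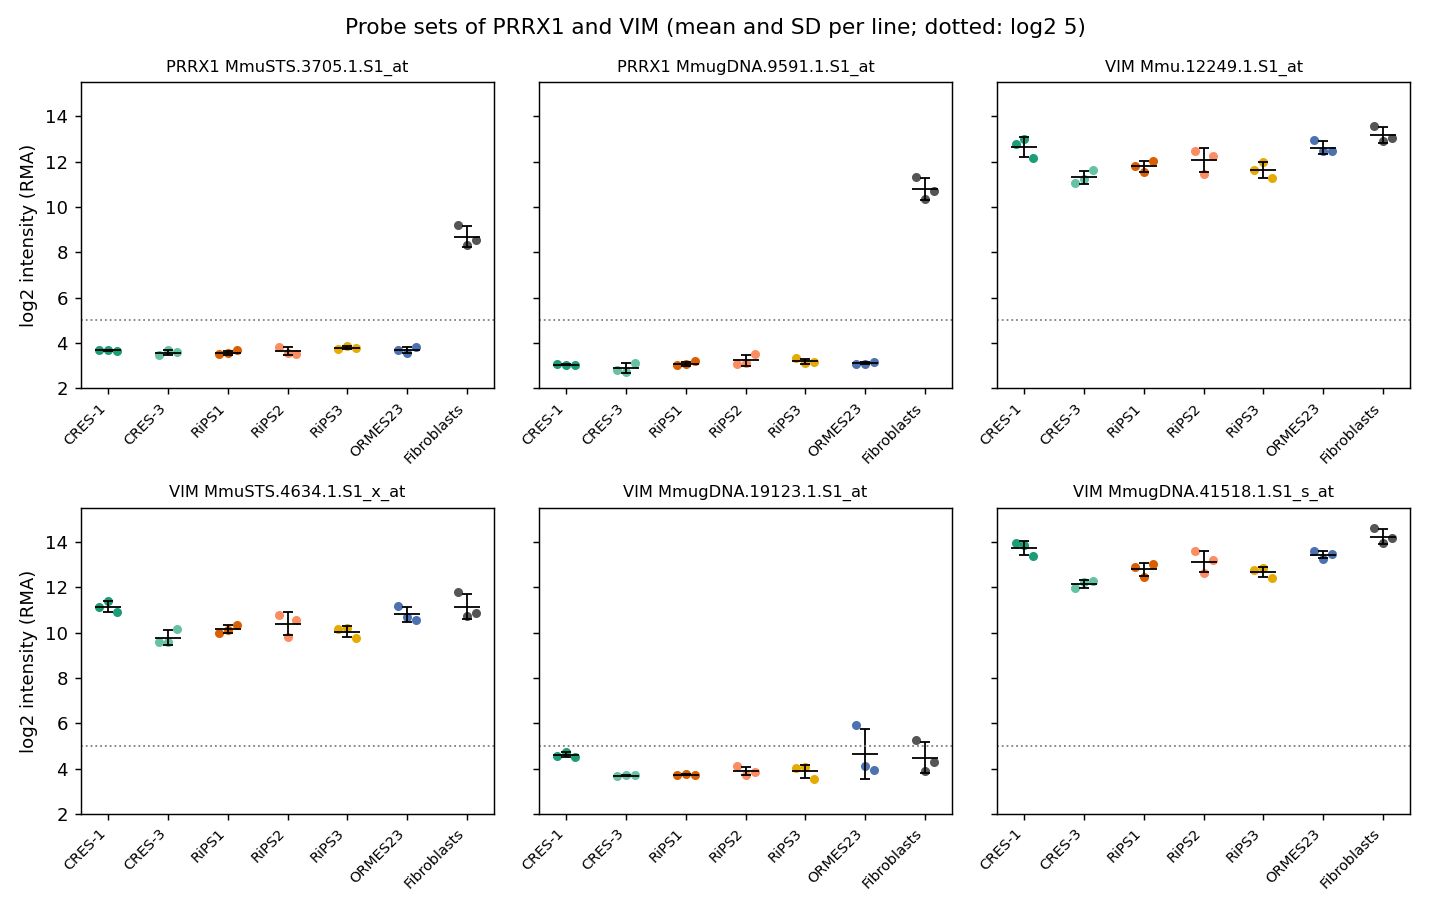
Log2 intensity (vertical axis) on each array, by line, for the 2 probe sets of PRRX1 and the 4 probe sets of VIM. Points are arrays, black bars the mean ± SD of 3 arrays and the dotted line log2 5. Both PRRX1 probe sets are above log2 8 in the fibroblasts alone, and the 3 VIM probe sets above log2 9 on every array have their lowest mean in CRES-3.

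Among the pluripotent lines, 4 of the 6 genes differed in a moderated F test over the 6 lines, against 17.1% of all tested genes. They were VIM (adjusted p = 0.0016), ZEB1 (0.00173), ZEB2 (0.00208) and TWIST1 (0.014). SNAI1 (0.108) and PRRX1 (0.825) did not pass. With values under log2 5 set to 5 for all genes, TWIST1 spanned 2.22 on the log2 scale between the highest and the lowest line mean, ZEB1 1.96, VIM 1.57, ZEB2 1.08 and SNAI1 0.75, and PRRX1 lay under 5 throughout. Among all tested genes these spans stood at percentile 99.3 for TWIST1, 98.9 for ZEB1, 97.5 for VIM, 91.6 for ZEB2 and 80.6 for SNAI1. The TWIST1 result rested on CRES-3, since its adjusted p was 0.0727 without array A of that line and 0.0585 without array B.

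The order of the pluripotent lines differed between genes, and most neighbours in each order overlapped. ZEB2 averaged 6.08 in CRES-1, 5.78 in RiPS2, 5.36 in RiPS3, 5.06 in ORMES23, 4.70 in RiPS1 and 4.00 in CRES-3. ZEB1 averaged 6.98 in RiPS1, 6.81 in ORMES23, 6.66 in CRES-1, 6.17 in RiPS2, 5.46 in CRES-3 and 4.67 in RiPS3. For both genes every pair of neighbours had overlapping arrays. TWIST1 averaged 8.29 in ORMES23, 8.17 in CRES-1, 7.72 in RiPS1, 7.52 in RiPS2, 7.32 in RiPS3 and 6.06 in CRES-3, again with overlap between all neighbours. VIM averaged 13.73 in CRES-1, 13.45 in ORMES23, 13.14 in RiPS2, 12.80 in RiPS1, 12.69 in RiPS3 and 12.17 in CRES-3, and only the step between RiPS3 and CRES-3 had no overlap. CRES-3 had the lowest mean of ZEB2, TWIST1, SNAI1 and VIM, and RiPS3 that of ZEB1.

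Each cloned or induced line was next set against ORMES23, the line from a fertilized embryo. CRES-3 had 2 genes called lower, TWIST1 and VIM, where 0.494% of all tested genes were called lower. TWIST1 was 4.67-fold lower in CRES-3 than in ORMES23 (log2 difference -2.22, SE 0.44, adjusted p = 0.0108), and VIM was 2.43-fold lower (-1.28, SE 0.23, adjusted p = 0.00697). The arrays of CRES-3 and ORMES23 did not overlap for TWIST1 or VIM. They did not overlap for ZEB1 or SNAI1 either, which were not called, so that this does not set the called genes apart. With each probe set fitted separately in limma, the second VIM probe set was called (-1.30, adjusted p = 0.02). The third was not (-1.04, adjusted p = 0.0561). The TWIST1 call was lost without array A or B of CRES-3 or array B or C of ORMES23, with adjusted p between 0.0579 and 0.0651 and log2 differences between -2.15 and -1.99. ZEB1 (log2 difference -1.36, adjusted p = 0.063) and ZEB2 (-1.07, adjusted p = 0.089) were not called in CRES-3. ZEB1 was called when the arrays of these 2 lines alone were fitted (adjusted p = 0.0428) or when values under log2 5 were set to 5 (0.0457). ZEB2 was called without array A of ORMES23 (log2 difference -1.37, adjusted p = 0.0313), but CRES-3 was near background, and counted from log2 5 the full difference was at least 1.05-fold and the one without that array at least 1.28-fold. Without array B or C of ORMES23 the ZEB2 bound was 0.898 or 0.990, so that it gives no fall.

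RiPS3 had 1 gene called lower than in ORMES23, ZEB1, where 0.305% of all tested genes were called lower. ZEB1 fell at least 3.47-fold counted from log2 5 (fitted log2 difference -2.14, SE 0.37, adjusted p = 0.0062). TWIST1 in RiPS3 differed by -0.97 (95% interval -1.89 to -0.04) and VIM by -0.76 (-1.25 to -0.27), neither of them called. CRES-1, RiPS1 and RiPS2 had none of the 6 genes called against ORMES23 in limma, where 0%, 2.4% and 0.458% of all tested genes were called in either direction. At an unadjusted p under 0.05, each of these lines had 1 gene of the 6, near the share of all tested genes, which was 11.4% in CRES-1, 20.8% in RiPS1 and 11.9% in RiPS2. It was ZEB2 in CRES-1 (log2 difference 1.02, 95% interval 0.34 to 1.69), VIM in RiPS1 (-0.65, -1.14 to -0.16) and ZEB2 in RiPS2 (0.72, 0.04 to 1.40).

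Cloned and induced lines of the same sex were compared directly. Between the male lines, ZEB2 was higher in CRES-1 than in RiPS1, at 6.08 ± 0.51 against 4.70 ± 0.39 (SD, n = 3 arrays each), where 0.53% of all tested genes were called higher. The rise was at least 2.04-fold counted from log2 5 (log2 difference 1.38, SE 0.32, adjusted p = 0.0133). The arrays did not overlap for ZEB2, nor did they for VIM, which was not called. The ZEB2 call was lost without array A or B of CRES-1 or array A of RiPS1, with adjusted p between 0.0615 and 0.0745. VIM was 1.91-fold higher in CRES-1 (log2 difference 0.94, SE 0.23, adjusted p = 0.0192), under the 2-fold limit. It passed the limit without array C of CRES-1 (1.11) or array C of RiPS1 (1.05). The log2 differences of ZEB1, TWIST1, SNAI1 and PRRX1 lay between -0.32 and 0.45.

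Between the female lines none of the 6 genes was called for CRES-3 against RiPS3 in limma, where 0.0359% of all tested genes were called in either direction. At an unadjusted p under 0.05 there were 3 of the 6, all lower in CRES-3, against 7.92% of all tested genes. The log2 difference was -1.36 for ZEB2 (95% interval -2.04 to -0.68, adjusted p = 0.141; at least 1.28-fold counted from log2 5), -1.26 for TWIST1 (-2.18 to -0.33, adjusted p = 0.416) and -0.52 for VIM (-1.01 to -0.03, adjusted p = 0.587). ZEB1 differed the other way, by 0.78 (-0.01 to 1.57). The difference between the female and the male comparison was tested as an interaction, and 2 of the 6 genes passed, against 4.87% of all tested genes. For ZEB2 the female minus the male difference was -2.74 (SE 0.46, adjusted p = 0.00272). ZEB2 averaged under log2 5 in CRES-3 (4.00) and RiPS1 (4.70), and with values under 5 set to 5 the interaction was -1.39 (SE 0.33, adjusted p = 0.0209). For VIM it was -1.46 (SE 0.33, adjusted p = 0.0171). The VIM result was lost without array A of CRES-1, array A of CRES-3 or array B of RiPS1 (adjusted p between 0.0523 and 0.053) and with the mean of its probe sets (0.0613). TWIST1, at -1.71 (adjusted p = 0.128), passed without array C of RiPS3 (-2.19, adjusted p = 0.0464). Each sex is 1 pair of lines, and RiPS1 came from fetal but RiPS3 from adult fibroblasts, so that sex, line and donor stage cannot be told apart here.

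**Figure D4:**
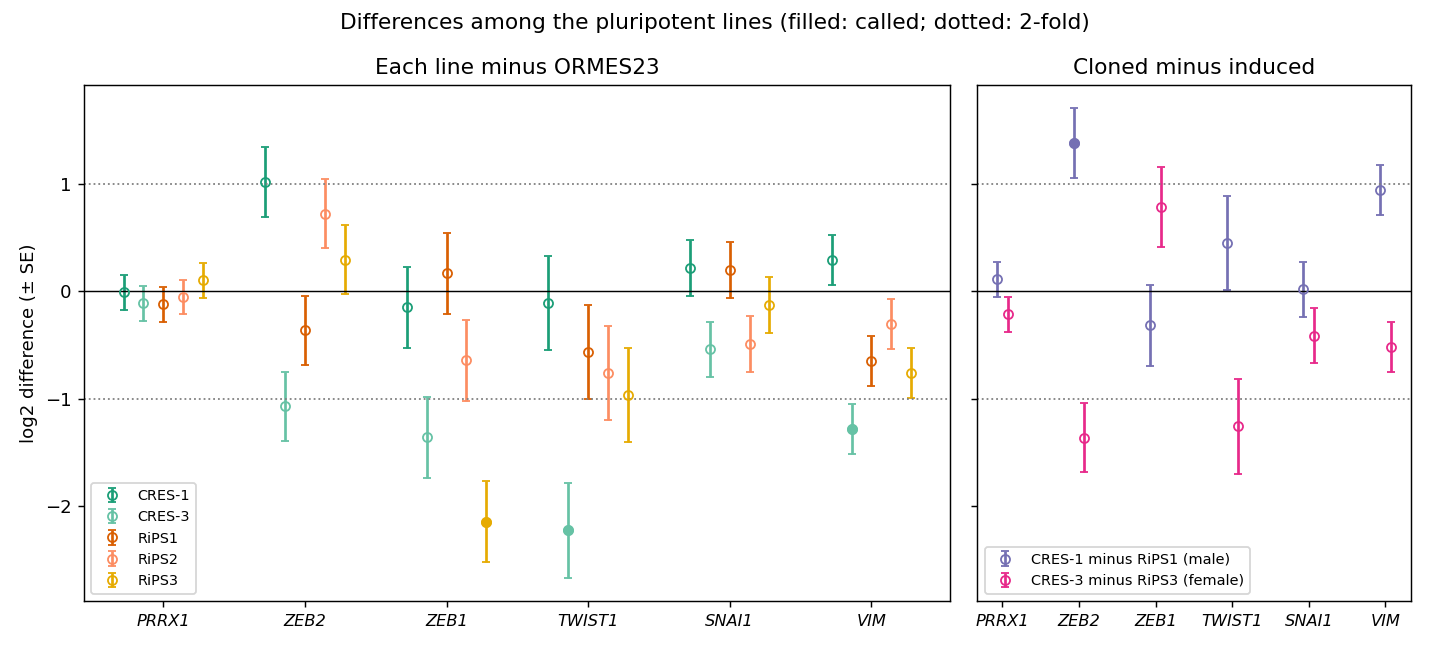
Log2 differences (vertical axis, ± SE) of the 6 genes, for each line minus ORMES23 (left) and each cloned line minus the induced line of its sex (right). Filled circles passed an adjusted p under 0.05 with at least 2-fold, and dotted lines mark 2-fold. TWIST1 and VIM in CRES-3, ZEB1 in RiPS3 and ZEB2 in CRES-1 against RiPS1 are filled, and the male and female differences of ZEB2 point in opposite directions.

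Levels moved together on some arrays of the pluripotent lines. Over the 18 pluripotent arrays, Pearson's r was 0.846 for TWIST1 with VIM, 0.699 for TWIST1 with ZEB2, 0.698 for VIM with ZEB2, 0.659 for TWIST1 with ZEB1 and 0.648 for VIM with ZEB1. It was 0.194 for ZEB1 with ZEB2, the lowest among these 4 genes. For SNAI1 it was 0.40 with TWIST1, 0.30 with VIM, 0.264 with ZEB1 and 0.087 with ZEB2. After each line's mean was removed, r was 0.68 for TWIST1 with VIM and 0.809 for VIM with ZEB1, and 0.271 for VIM with ZEB2. For SNAI1 with the same 4 genes it was then negative, between -0.352 (ZEB2) and -0.104 (TWIST1). These values describe 18 arrays that fall into 6 lines of 3 and share culture and processing within a line, and no test was made.

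**Figure D5:**
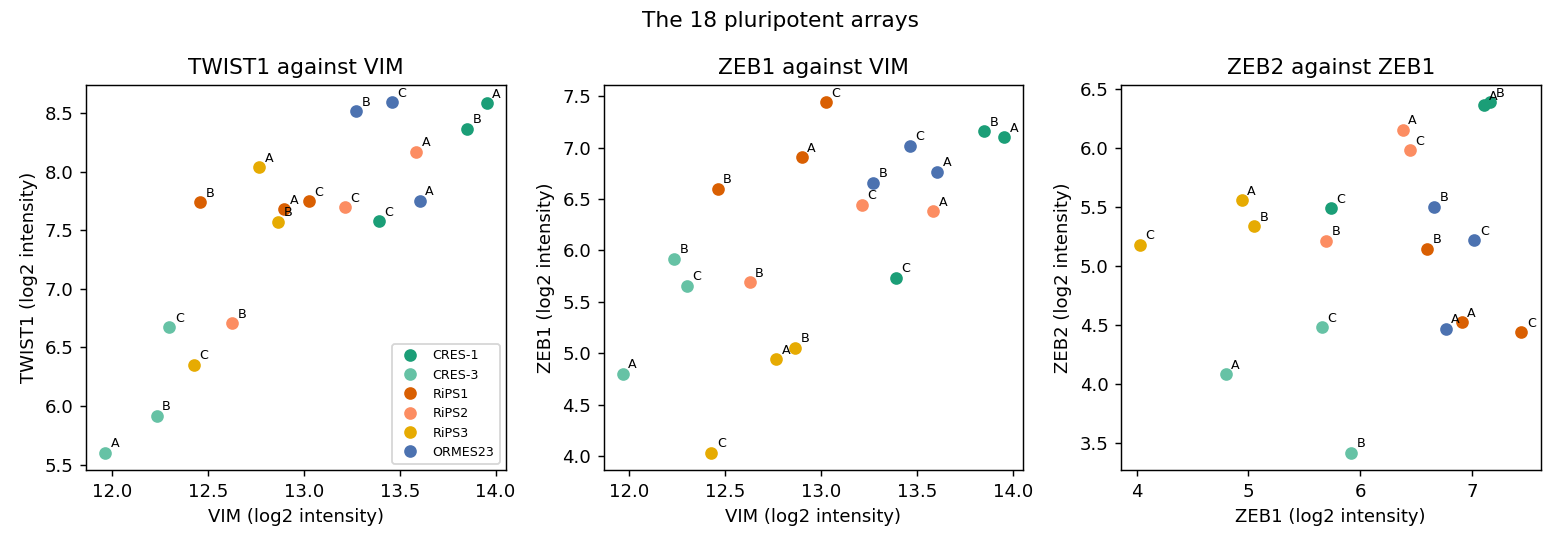
Log2 intensities on the 18 pluripotent arrays, coloured by line and lettered by replicate, for TWIST1 against VIM, ZEB1 against VIM and ZEB2 against ZEB1. TWIST1 follows VIM (r = 0.846) with CRES-3 at the low end of both, while ZEB2 and ZEB1 show little relation (r = 0.194).

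Markers of other cell types also varied between and within the lines that differed. PAX6, a neural factor and the neural marker measured here, read 3.18, 6.65 and 6.94 in ORMES23 and 7.42, 3.69 and 7.74 in RiPS2. In both lines the array low in PAX6 (A of ORMES23, B of RiPS2) was also the lowest of its line for ZEB2 and TWIST1. Array A of ORMES23 was the highest of its line for VIM and not the lowest for ZEB1, and array B of RiPS2 was the highest of its line for SNAI1. The mean over 5 mesoderm markers was 5.40, 5.80 and 6.10 in CRES-3, against 7.07, 7.04 and 6.59 in ORMES23, and it was 7.14, 7.28 and 5.83 in RiPS3. Array C of RiPS3, low in these markers, was also the lowest of its line for TWIST1, ZEB1, ZEB2, SNAI1 and VIM. In RiPS1 the array lowest in these markers, C (6.02), was the highest of its line for ZEB1, TWIST1, SNAI1 and VIM. For TWIST1 the margin was small (7.75 against 7.74 on array B), and for ZEB2 array C was the lowest of its line (4.44). Of the 5 mesoderm markers none was called for CRES-3 against ORMES23, with log2 differences of -2.26 for EOMES (adjusted p = 0.0508), -1.17 for TBXT and -1.43 for HAND1, which averaged under log2 5 in CRES-3. EOMES was called with the mean of its probe sets (adjusted p = 0.0383), without array C of CRES-3 (0.0235) and with values under log2 5 set to 5 (0.0497), and TBXT with the arrays of these lines alone (0.0436). Without array A of ORMES23 the EOMES difference shrank to -1.64 (adjusted p = 0.14) and was not called. EOMES and TBXT are T-box factors of the primitive streak, and HAND1 is a factor of mesoderm and trophoblast. The mean over 8 fibroblast markers was 6.90 to 7.17 in CRES-3, 6.88 to 7.18 in RiPS3 and 7.06 to 7.16 in ORMES23. The part of other cell types and of the mouse feeder cells in these differences was not tested.

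For each of the 6 genes, the 3 of the other 11136 genes outside the set with the highest Pearson's r over the 18 pluripotent arrays were taken. ZEB1 was most alike to CD47 (0.945), CASP8 (0.917) and CDK14 (0.875). ZEB2 was most alike to ZFHX3 (0.94), S100A4 (0.94) and S100A6 (0.913), and TWIST1 to PLAGL1 (0.904), WLS (0.882) and P3H2 (0.867). SNAI1 was most alike to KBTBD2 (0.92), KLF10 (0.92) and IER5 (0.904), and VIM to CDKN2A (0.923), FBN2 (0.905) and ANXA2 (0.897). For PRRX1, which was near background on these arrays, the highest values were 0.718 (EVI2A), 0.708 (BTG2) and 0.667 (MLX). These are the largest of many correlations and carry no test.

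Genes that act with or against the transition factors were taken from gene lists written for this purpose. In ORMES23 against the fibroblasts, 18.5% of all tested genes were called higher and 14.1% lower, with a median log2 difference of 0.02. Among 18 epithelial genes, many of them known targets of SNAI and ZEB repression, 9 rose and none fell, with a median of 1.08. DSP (desmoplakin) rose at least 37.5-fold, EPCAM (an epithelial adhesion protein) at least 40.5-fold and KRT19 (a keratin) at least 39.5-fold, each counted from log2 5 in the fibroblasts, and CLDN6 (a claudin) rose 91.7-fold. In the other lines 7 to 12 of the 18 rose, where the share of all tested genes called higher was 16.4% in CRES-1, 19.1% in CRES-3, 19.3% in RiPS1, 17.2% in RiPS2 and 18.3% in RiPS3. RiPS1 alone had a member that fell, KRT18 (-1.19), named after its value was seen, but RiPS1 averaged under log2 5, and counted from there the fall was at least 1.82-fold. That call was also lost without fibroblast array B (-0.88, adjusted p = 0.0543). The probe set of CDH1, the classical target, averaged under log2 5 in both ORMES23 (4.43) and the fibroblasts (4.91), so that it gives no level of E-cadherin in either. In RiPS2 and RiPS3 it did not average under log2 5, and CDH1 was not called in limma in either line against ORMES23. Of 7 epithelial regulators 4 rose in ORMES23. Counted from log2 5, ESRP2, a splicing regulator, rose at least 11.2-fold and GRHL3 at least 3.10-fold (4.79-fold without array A of ORMES23). The log2 difference was 2.79 for OVOL2, a repressor of ZEB1, and 1.06 for OVOL1. The OVOL1 call was lost without fibroblast array C (0.83) and with the mean of its probe sets (0.44).

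Of 18 mesenchymal adhesion, matrix and cytoskeleton genes, 13 fell in ORMES23 against the fibroblasts and none rose, with a median log2 difference of -1.56. TNC (tenascin C) differed by -7.11, LOX (a collagen cross-linking enzyme) by -5.79 and S100A4 by -5.74. CD44 (a hyaluronan receptor) fell at least 4.75-fold counted from log2 5. In the other lines 12 or 13 of the 18 fell and none rose. Of 14 genes of TGF-beta signalling, which induces SNAI and ZEB genes in many cells, 7 fell and 1 rose. TGFBI, a TGF-beta-induced matrix protein, differed by -6.94, INHBA (an activin subunit) by -3.44, and LTBP1 (which holds latent TGF-beta in the matrix) by -3.06, and TGFB3 fell at least 3.45-fold counted from log2 5. BMP4, named after its value was seen, rose by 4.26, and by 5.15 without array A of ORMES23.

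Of 12 other transition factors, 3 rose and 1 fell in ORMES23 against the fibroblasts. In a list this short, these counts lie near the 18.5% and 14.1% of all tested genes called higher and lower. PRRX2, the close relative of PRRX1, fell by 3.39 on the log2 scale, to 7.42 in ORMES23 against 10.80 in the fibroblasts. GSC (goosecoid) rose at least 8.58-fold counted from log2 5, a bound of 3.21-fold without array A of ORMES23, 13.2-fold without B and 14.8-fold without C. TCF3, a partner of TWIST1, rose by 1.86. ID1, named after its value was seen, rose by 1.62, a call lost without fibroblast array B (0.80, adjusted p = 0.146), without array B or C of ORMES23 (adjusted p = 0.0626 and 0.071) and with the arrays of these lines alone (0.114). Without fibroblast array A it rose by 2.31. With the mean of its probe sets TCF3 differed by 0.56 and was not called. HMGA2 differed by 0.91, under 2-fold, and passed the limit without array A of ORMES23 (1.03) or of the fibroblasts (1.30). Of 10 corepressors and cofactors of SNAI and ZEB proteins, 4 rose and 1 fell. CTBP2, the corepressor bound by ZEB proteins, rose by 2.27, the deacetylase HDAC2 by 1.88 and the demethylase KDM1A by 1.39, and SIN3A, named after its value was seen, by 1.30. LOXL2, a lysyl oxidase that binds SNAI1, differed by -1.34, and by -0.70 with the mean of its probe sets.

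Among 8 regulators of SNAI stability, CTDSP1, a phosphatase of SNAI1, fell by 1.80 in ORMES23 and PAK1, a kinase of SNAI1, rose by 1.70. Of the 8, 1 was called higher and 1 lower, near the 18.5% and 14.1% of all tested genes. CSNK2A1 (0.97) and FBXW7 (0.96) lay just under 2-fold, and each passed it without fibroblast array B (1.07 and 1.12). Of 5 other intermediate filament and lamina genes, LMNA (lamin A/C), PLEC (plectin) and SYNM (synemin) fell, with log2 differences of -3.67, -2.34 and -2.33, while GFAP rose by 1.20 and LMNB1 (lamin B1), named after its value was seen, rose by 2.63. The LMNB1 difference was 3.25 without fibroblast array A and 1.89 without B. GFAP was under 2-fold without fibroblast array A (0.96) and with the mean of its probe sets (0.54). Of 11 other cadherins and catenins, 5 rose and 1 fell. CDH10 rose at least 11.1-fold counted from log2 5 (17.3-fold without array A of ORMES23), JUP (plakoglobin) differed by 3.13 and CDH13 by -3.44. CTNNA2 was called at 2.72, but its rise counted from log2 5 was at least 1.77-fold. The other rises, named after their values were seen, were CTNND2 (2.56) and CTNND1 (1.01). CTNND1 was under 2-fold without array B (0.97) or C (0.99) of ORMES23 or fibroblast array A (0.79), with median-centred arrays (0.98) and with the mean of its probe sets (0.72).

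Against ORMES23, few list genes were called in the lines where the transition genes differed. In CRES-3, 1 of 18 epithelial genes was higher, CLDN7, a claudin, at 8.62 against 7.38 in ORMES23 (log2 difference 1.24, SE 0.21, adjusted p = 0.00338). None of 18 mesenchymal genes was called in limma, with MMP2 at -1.05 (adjusted p = 0.0753) and CDH11 at -1.06 (adjusted p = 0.103). Both were called when the arrays of these 2 lines alone were fitted (adjusted p = 0.041 and 0.0119). None of 12 other transition factors was called either. ID3, an inhibitor of helix-loop-helix factors such as TWIST1, differed by -2.12 (adjusted p = 0.0546) and was called without array A of ORMES23 (-2.53, adjusted p = 0.0299). FOXC1 differed by -1.48 (adjusted p = 0.138), at least 1.64-fold counted from log2 5.

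In RiPS3, 2 of 18 epithelial genes were higher than in ORMES23, CLDN7 with a log2 difference of 1.37 (adjusted p = 0.00156) and RAB25, an epithelial trafficking protein, with 1.68 (adjusted p = 0.0117). The RAB25 call was lost without array B or C of RiPS3 (adjusted p = 0.0558 and 0.0514) and with the arrays of these 2 lines alone (0.0519). The shares of all tested genes called higher were 0.503% for CRES-3 and 0.467% for RiPS3. In CRES-1 against RiPS1, 1 of 11 cadherins and catenins was higher, CDH13 with 1.89 (adjusted p = 0.0143), a call lost without array A of CRES-1 or array B of RiPS1 (adjusted p = 0.0654 and 0.0748). In the same comparison 1 of 8 fibroblast markers was lower in CRES-1 and 7 were not called, with a median log2 difference of 0.12. It was COL6A3 (log2 difference -2.85, adjusted p = 0.00156), and 1.61% of all tested genes were called lower.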

How the data were processed

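Intensities on the log2 scale, 1 value for each probe set and array, were deposited after RMA (a multi-array background correction, quantile normalization and summary) by the authors, per the submitters' processing notes; its version is not given in the sources used here. The 21 array medians lay between 4.98 and 5.14, and the number of arrays limits the precision. Within a line, arrays correlated at 0.97 or more over all probe sets, and no 2 arrays were identical. Genes were named from the platform annotation: 24969 probe sets had 1 symbol, 361 had several and 27535 had none, and the last 2 kinds and control probe sets were left out. Where a gene had several probe sets, the one brightest on average stood for it.

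One limma 3.58.1 fit in R 4.3.3, with 1 mean for each line (14 residual degrees of freedom), gave 13 comparisons, a moderated F test and an interaction, with two-sided p-values and Benjamini-Hochberg adjustment across 11142 genes. The script was tested on simulated data. A fold printed "counted from log2 5" sets arrays under 5 in the dimmer line to 5 and leaves the brighter line as measured. Where a gene's dimmer line averages under 5 and only a log2 difference is given, that difference is no measured ratio. The genes, the lists and the tests were chosen with earlier results of these data known. Named genes were the 6 genes, up to 4 genes with the smallest p of a described list, and the 3 genes most alike to each of the 6. Same-lettered replicates of 2 lines correlated between -0.397 and 0.437 in their deviations from the line means, and all 3 letters exceeded 0.1 in 1 comparison, CRES-1 against RiPS1; the labels give no shared batch. Alternatives were no filter, no fold limit, mean of probe sets, each probe set separately, median-centred arrays, only the compared arrays and a replicate block. Each array was also left out in turn, without the block. Setting values under log2 5 to 5 was added after seeing the data.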

Additional observations from a re-analysis of the deposited data

Results flagged for a closer look

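For 2 of the 6 genes, the cloned minus induced difference was not the same in the female and the male pair of lines. The interaction itself was tested. For ZEB2 the log2 difference was -1.36 for CRES-3 minus RiPS3 and 1.38 for CRES-1 minus RiPS1, which gives -2.74 for the first minus the second (SE 0.46, adjusted p = 0.00272 in limma). CRES-3 and RiPS1 averaged under log2 5, and with values under 5 set to 5 this was -1.39 (SE 0.33, adjusted p = 0.0209). For VIM it was -0.52 for CRES-3 minus RiPS3 and 0.94 for CRES-1 minus RiPS1, which gives -1.46 (SE 0.33, adjusted p = 0.0171). The VIM result was lost without array A of CRES-1, array A of CRES-3 or array B of RiPS1 (adjusted p between 0.0523 and 0.053). It was also lost with the mean of its probe sets (0.0613). Over all tested genes 4.87% passed this test. Each sex is 1 pair of lines, and RiPS1 is fetal-derived while RiPS3 is adult-derived. Sex, line and donor stage cannot be told apart.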

How the results depend on the processing

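Of 1014 recomputed log2 differences of the 6 genes, 976 kept their side of the threshold. These either kept their direction or, where not called, changed sign with a shift under 1 SE. No called difference changed sign. With no filter, no fold limit or the replicate block, the log2 difference itself could not change, only its call. The 1014 include PRRX1, whose difference from the fibroblasts follows from the filter. Without the fold limit, 5 of the 6 genes passed in ORMES23 against the fibroblasts and 2 in CRES-1 against RiPS1, against 3 and 1 with it. Leaving out 1 array moved the number called to between 1 and 3 in CRES-3 against ORMES23 (3 without array A of ORMES23, against 2) and to between 0 and 2 in CRES-1 against RiPS1, and the number passing the interaction to between 1 and 3 (3 without array C of RiPS3, against 2). With the arrays of the compared lines alone, 3 genes were called in CRES-3 against ORMES23. Values under log2 5 were set to 5 as an alternative chosen after seeing the data, and this gave 3 there and changed no other number of called genes among the 6. With the mean of probe sets 1 gene passed the interaction. No filter and median-centred arrays changed no call of the 6 genes. The replicate block left every number of called genes as it was, including 1 in CRES-1 against RiPS1 and 3 in ORMES23 against the fibroblasts. It fits 1 effect for each letter, shared by all 7 lines. A likeness of letters between CRES-1 and RiPS1 alone is not taken up by it, so that it cannot show whether that likeness matters.

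Counts over all genes moved more. Without a fold limit 6623 to 7265 genes passed against the fibroblasts, where 3408 to 3709 were called. Over all alternatives the count ran from 0 to 40 for CRES-1 against ORMES23 (0 as reported), from 52 to 280 for CRES-3 (111), from 191 to 929 for RiPS1 (267), from 11 to 105 for RiPS2 (51) and from 27 to 218 for RiPS3 (86). It ran from 172 to 797 for CRES-1 against RiPS1 (238) and from 1 to 20 for CRES-3 against RiPS3 (4). Levels near background limit ZEB2 in CRES-3 and RiPS1, ZEB1 in RiPS3 and PRRX1 in all pluripotent lines to bounds.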
